A study of Mus musculus with 4 samples.

Results

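Of the 15746 genes listed in the deposited table, 9 were taken by name, among them 5 potassium channel genes (Kcnq1, Kcnh2, Kcnj2, Kcnj11 and Kcnd2). The other genes were the calcium channel gene Cacna1c, the pacemaker channel genes Hcn2 and Hcn4, and Gja1, which encodes connexin 43. All 9 were present, and all 9 passed the filter on low values, so that none of these was left out. No sodium channel gene was among the 9. RNA had been sequenced from adult WT mouse hearts that were perfused, minced, treated with trypsin and homogenized. The pellet of the slow spin, which the methods call cell debris, is the rest fraction. The mitochondria were pelleted from the remaining supernatant and, according to the methods, treated with digitonin, which permeabilizes membranes, and RNase A, which degrades accessible RNA, before RNA was isolated. The 2 fractions were compared with 2 libraries each. Neither the labels nor the methods say whether the libraries came from separate animals, so that p-values measure only the spread between these libraries. Per the methods, the supernatant of the mitochondrial spin was removed, so that it is in neither fraction. Both fractions come from whole tissue with all cell types of the heart. A different share of a cell type in a fraction cannot be told apart from a different distribution of its RNA between the fractions.

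The heartbeat rests on currents through membrane proteins that open and close in a fixed order. L-type calcium current triggers contraction, several potassium currents end the action potential, hyperpolarization-activated current drives pacemaking, and gap junctions pass the current from cell to cell. The mRNAs of these proteins are transcribed in the nucleus and translated at the endoplasmic reticulum, and the proteins act mainly in the plasma membrane, its T-tubules and the intercalated discs.

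The potassium and pacemaker channels of the list share a short stretch of the pore, the selectivity filter, in which a tyrosine or a phenylalanine lies between 2 glycines. The codons of this stretch are shown for 5 of the genes because this stretch is the element that the channel proteins share. The capitals mark the 9 bases that encode glycine, tyrosine or phenylalanine, and glycine, with 9 bases on either side, 5′ to 3′ on the coding strand (GENCODE M21 transcripts, GRCm38).
Kcnh2, chr5:24325546-24325572, minus strand: accagcgtgGGCTTTGGCaatgtctct
Kcnj2, chr11:111072204-111072230, plus strand: acaaccattGGCTATGGTttcaggtgt
Kcnj11, chr7:46099487-46099513, minus strand: gtgaccattGGTTTCGGCgggcgcatg
Kcnd2, chr6:21217403-21714150, plus strand, across an intron: acaacactgGGGTATGGCgacatggta
Hcn4, chr9:58855582-58855608, plus strand: ctgtgcattGGGTATGGAcggcaggca
The first glycine is residue 628 of the Kcnh2 protein, 144 of Kcnj2, 132 of Kcnj11, 372 of Kcnd2 and 480 of Hcn4. The middle residue is phenylalanine in Kcnh2 and Kcnj11 and tyrosine in Kcnj2, Kcnd2 and Hcn4. Cacna1c, a calcium channel, and Gja1, a connexin, have no such stretch and are not shown.

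Each value below is a normalized count, which the authors made by dividing reads by the library's size factor and rounding the result. The libraries differed in what a single read was worth. From the spacing of the values, this was 3.87 normalized counts in mitochondrial replicate 1, 2.55 in mitochondrial replicate 2, 0.264 in rest replicate 1 and 0.365 in rest replicate 2. The mitochondrial chromosome took 93.5% to 97.6% of all normalized counts in the mitochondrial libraries and 63.2% to 67.5% in the rest libraries. Approximately 1150000 and 2080000 reads on nuclear genes remained in the mitochondrial libraries, against 9680000 and 7630000 in the rest libraries, so that the mitochondrial values carry the larger counting error. For 7 of the 9 genes, fewer than 50 reads stood behind the value in each mitochondrial library. The cardiomyocyte markers taken as a check of the tissue were all present, and Myh6, the main myosin heavy chain of the adult mouse heart, reached at least 128576 normalized counts in each of the 4 libraries.

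To determine how the mRNAs of these channels were distributed, the mitochondrial and the rest fractions were compared in linear models (limma) on log2 of the normalized count plus 1, with p-values adjusted over 12150 tested genes. A negative log2 fold change is a lower value in mitochondria. Cacna1c was lower in mitochondria past an adjusted p-value of 0.05, and it was the 1 gene of the 9 that passed. No gene passed in the other direction, while at an unadjusted p-value under 0.05 the counts were 5 lower and 0 higher. Over all tested genes, 1.39% were called lower and 2.16% higher at the adjusted p-value, and 16.2% were lower and 14.1% higher at the unadjusted p-value. The log2 fold change was negative for 8 genes and positive for Hcn2, while 56.2% of all tested genes were negative. The median of the 9 was -0.86, against -0.14 over all tested genes. Both mitochondrial values lay below both rest values for 6 of the 9 genes, and above for 0. Among all tested genes 33.4% were separated downwards in this way and 27.7% upwards. With 2 libraries against 2, an exact two-sided permutation test of a single gene cannot go below p = 0.33.

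**Figure D1:**
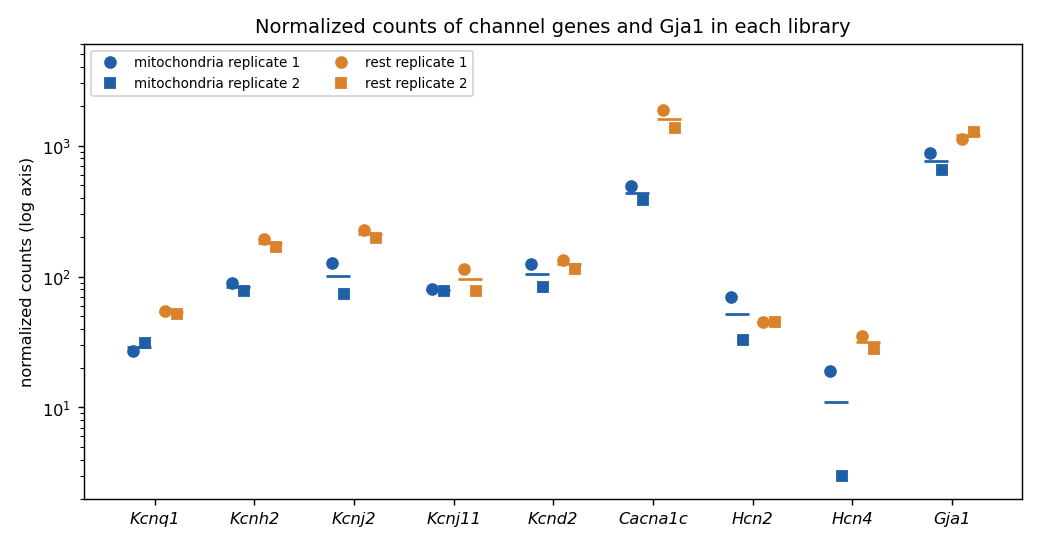
Normalized counts (log axis) of the 8 channel genes and Gja1 in each of the 4 libraries. Points are libraries and short lines are the means of the 2 libraries of a fraction; the mitochondrial and rest values are farthest apart for Cacna1c (means 437.5 and 1612.5), lie side by side for Kcnj11, Kcnd2 and Hcn2, and spread widely in mitochondria for Hcn4 (19 and 3).

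Cacna1c (ENSMUSG00000051331, chr6:118587240-119196890, minus strand, GRCm38) encodes the pore-forming subunit of the cardiac L-type calcium channel. Its normalized counts were 492 and 383 for mitochondria and 1869 and 1356 for the rest. The lowest rest value was thus well above the highest mitochondrial value. The means were 437.5 ± 77.1 and 1612.5 ± 363 (SD, n = 2). The fitted log2 fold change was -1.87 ± 0.24 (SE), with an adjusted p-value of 0.0427 by limma, and the fold fitted on this scale was 3.66 for the rest over mitochondria. Only 6.57% of the tested genes had a more negative value. Approximately 127 and 150 reads were behind the mitochondrial values and 7073 and 3711 behind the rest values. The ratio of the pooled reads, scaled as deposited, was 0.258 with an exact 95% interval of 0.228 to 0.290, which covers counting error only. No tested gene was called when any 1 of the 4 libraries was left out. The loss of the call in these fits is thus not particular to Cacna1c, whose log2 fold change ranged from -2.10 to -1.64. With a pseudocount of 0.1 in place of 1, which likewise left no tested gene called, the adjusted p-value of limma was 0.0558.

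Kcnh2 and Kcnq1 encode the pore-forming subunits of the rapid and the slow delayed rectifier potassium channels. Kcnh2 (ENSMUSG00000038319, chr5:24319589-24351604, minus strand) had 89 and 77 normalized counts in mitochondria and 194 and 168 in the rest. Both mitochondrial values lay far below the rest values and the fractions did not overlap. The difference was -1.12 ± 0.21 (SE) on the log2 scale, with an adjusted p-value of 0.0574 by limma, just outside the threshold. This call changed with the settings: the adjusted p-value of limma was 0.0427 with a pseudocount of 10, 0.0176 when only genes with a mean above 50 normalized counts were tested, and 0.0306 with voom, limma's weighted fit, on approximate reads.

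Kcnq1 (ENSMUSG00000009545, chr7:143106362-143427042, plus strand) had 27 and 31 normalized counts in mitochondria and 55 and 52 in the rest. The fractions did not overlap, and Kcnq1 was the 1 gene of the 9 that was lower in mitochondrial replicate 1 than in replicate 2. The mitochondrial values rested on approximately 7 and 12 reads. The difference was -0.86 ± 0.26 (SE) on the log2 scale with an adjusted p-value of 0.114 by limma. The noncoding RNA Kcnq1ot1 is transcribed from the opposite strand within Kcnq1 (chr7:143203458-143296549) and shares 121 exon bases with it. Kcnq1ot1 had 19 and 79 normalized counts in mitochondria and 692 and 644 in the rest, with a log2 fold change of -4.06 and an adjusted p-value of 0.0524 by limma. Whether strand was used in counting is not given in the sources used here, and reads of the shared bases cannot be told apart without strand. No exon of the other 8 genes overlapped an exon of another gene.

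Kcnj2 and Kcnj11 are inward rectifiers. Kcnj2, which encodes a main channel of the current that holds the resting potential (ENSMUSG00000041695, chr11:111066164-111076821, plus strand), had 128 and 74 normalized counts in mitochondria and 226 and 199 in the rest. The rest values were all higher, but the mitochondrial libraries differed from each other by 0.78 on the log2 scale. Its log2 fold change was -1.12 ± 0.32 (SE) with an adjusted p-value of 0.103 by limma. The adjusted p-value was 0.0379 among genes with a mean above 50 normalized counts and 0.0333 with voom.

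Kcnj11 (ENSMUSG00000096146, chr7:46093953-46100764, minus strand) encodes the pore of the ATP-sensitive potassium channel, which links membrane voltage to the energy state of the cell. It had 81 and 77 normalized counts in mitochondria and 114 and 78 in the rest, so that only rest replicate 1 stood apart and the fractions overlapped. Its log2 fold change was -0.25 ± 0.27 (SE) with an adjusted p-value of 0.552 by limma, and it was 0.018 without rest replicate 1. The ratio of pooled reads was 0.794 (exact 95% interval 0.585 to 1.06). Kcnd2 (ENSMUSG00000060882, chr6:21215503-21729805, plus strand) encodes a pore-forming subunit of the transient outward potassium current. It had 124 and 84 normalized counts in mitochondria and 135 and 115 in the rest, and the higher mitochondrial value lay between the rest values. The difference was -0.29 ± 0.27 (SE) on the log2 scale with an adjusted p-value of 0.510 by limma.

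Hcn2 and Hcn4 encode hyperpolarization-activated channels, of which Hcn4 is the main form in the sinoatrial node. Hcn2 (ENSMUSG00000020331, chr10:79716634-79736108, plus strand) had 70 and 33 normalized counts in mitochondria and 45 in each rest library. The mitochondrial values fell on either side of the rest values. Limma gave a log2 fold change of 0.10 ± 0.42 (SE) with an adjusted p-value of 0.893. The direction was not stable, since the log2 fold change was -0.44 without mitochondrial replicate 1 and 0.63 without mitochondrial replicate 2.

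Hcn4 (ENSMUSG00000032338, chr9:58823412-58863175, plus strand) had 19 and 3 normalized counts in mitochondria and 35 and 28 in the rest. Both rest values were higher, while the mitochondrial values were far apart. Mitochondrial replicate 2 held approximately 1 read, below the 7.65 normalized counts that 3 reads are worth in that library, and mitochondrial replicate 1 held approximately 5. The fitted log2 fold change was -1.85 ± 0.84 (SE) with an adjusted p-value of 0.216 by limma. It ranged from -3.01 without mitochondrial replicate 1 to -0.69 without mitochondrial replicate 2. With 6 reads in the mitochondrial libraries together against 209 in the rest libraries, the scaled ratio was 0.288 with an exact 95% interval of 0.104 to 0.637.

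The atrial and nodal myocyte markers were unevenly distributed between the libraries. Their summed normalized counts were 255 and 1076 in mitochondrial replicates 1 and 2 and 763 and 2071 in rest replicates 1 and 2. Replicate 2 was thus higher in both fractions, and the largest values were those of Nppa and Myl4. Tbx3 had 12 and 46 normalized counts in mitochondria and 48 and 54 in the rest. The mitochondrial values of Hcn4 rested on approximately 5 and 1 reads, too few to be set against these sums. Of the 7 atrial and nodal markers 6 were listed and 5 tested, their median log2 fold change was -1.07, none was called, and Shox2 was at 0 in 1 library. The part of the atrial share in the values of Hcn4 was not tested.

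Gja1 (ENSMUSG00000050953, chr10:56377330-56402513, plus strand) encodes the main gap junction protein of the working myocardium. It had 883 and 656 normalized counts in mitochondria and 1136 and 1274 in the rest. All rest values were higher, and the gap between the fractions was about as wide as the spread within mitochondria. The means were 769.5 ± 161 and 1205 ± 97.6 (SD, n = 2). The log2 fold change was -0.66 ± 0.21 (SE) with an adjusted p-value of 0.128 by limma. The ratio of the pooled reads was 0.625 with an exact 95% interval of 0.569 to 0.685.

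Per kilobase of exon sequence, Gja1 was the most abundant of the 9 mRNAs in both fractions. It had 111 and 124 normalized counts per kilobase in the rest libraries, followed by Cacna1c with 88.2 and 64.0. Kcnj2 (41.5 and 36.6) and Kcnh2 (40.0 and 34.7) came next with overlapping values. Kcnj11 (31.0 and 21.2) and Kcnd2 (26.2 and 22.3) also overlapped. Hcn2 followed with 14.1 in each library, then Kcnq1 with 13.4 and 12.7 and Hcn4 with 5.72 and 4.58. In mitochondria Gja1 had 86.1 and 64.0, and Hcn4 was again lowest with 3.11 and 0.490. Kcnq1 lay above it with 6.60 and 7.57. The 6 genes from Kcnj11 (mean 21.5) through Cacna1c (20.6), Kcnd2 (20.2), Kcnj2 (18.6) and Kcnh2 (17.1) to Hcn2 (16.1) could not be ordered there, since each overlapped its neighbor. The length counted for Cacna1c (21191 bases) covers the exons of all its annotated transcripts. Over the length of the transcript with the longest coding sequence, which for Cacna1c is a model without untranslated parts, Gja1 and Cacna1c were again first and second in the rest, Kcnh2 passed Kcnj2, Kcnq1 passed Hcn2, and Cacna1c moved from rank 3 to rank 2 in mitochondria.

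Because the size factors were the same for all genes of a library, the ratio of each channel to Gja1 within a library does not depend on the scaling. Cacna1c was at 55.7% and 58.4% of the normalized counts of Gja1 in mitochondria and at 165% and 106% in the rest. The fractions were clearly apart, and the ratio was alike in the 2 mitochondrial libraries. Kcnh2 was at 10.1% and 11.7% in mitochondria and 17.1% and 13.2% in the rest, and Kcnj2 at 14.5% and 11.3% against 19.9% and 15.6%. For both, the mitochondrial ratios stayed below the rest ratios. The opposite order was seen for Kcnd2, at 14.0% and 12.8% in mitochondria and 11.9% and 9.03% in the rest, and for Hcn2, at 7.93% and 5.03% against 3.96% and 3.53%. Kcnq1 (3.06% and 4.73% against 4.84% and 4.08%) and Kcnj11 (9.17% and 11.7% against 10.0% and 6.12%) overlapped. Hcn4 was at 2.15% and 0.457% against 3.08% and 2.20%, the rest values being higher. These ratios were not tested. The mitochondrial values rested on approximately 23 and 30 reads for Kcnh2 and 33 and 29 for Kcnj2. They rested on 32 and 33 for Kcnd2 and 18 and 13 for Hcn2. Counting error was not set against the gaps between these ratios. The share of all tested genes separated relative to Gja1 was not computed. Gja1 itself had a log2 fold change of -0.66.

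**Figure D2:**
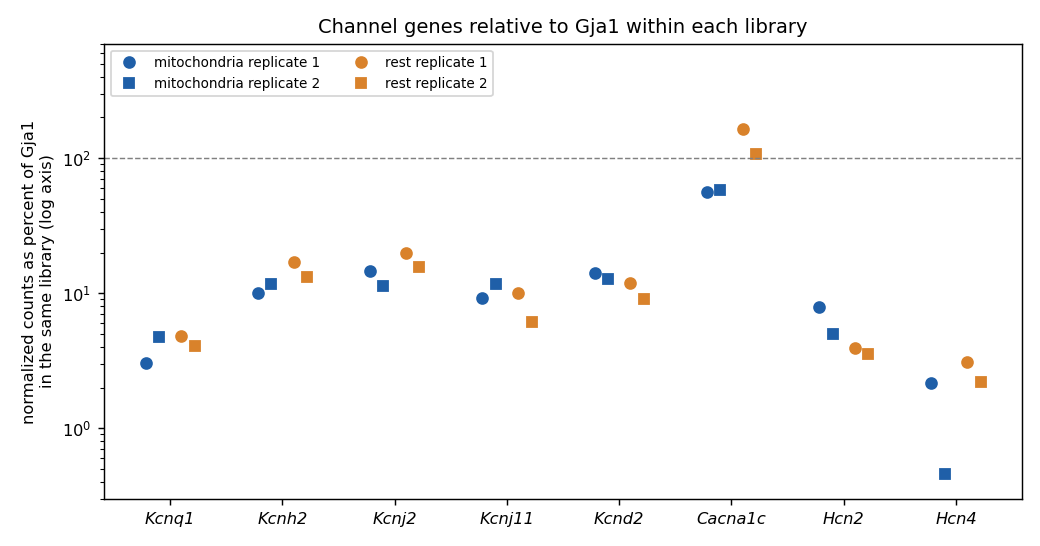
Normalized counts of the 8 channel genes as percent of Gja1 in the same library (log axis), with the dashed line at 100%. Points are libraries. Cacna1c lay below Gja1 in both mitochondrial libraries (55.7% and 58.4%) and above it in both rest libraries (165% and 106%). Hcn2 and Kcnd2 were higher relative to Gja1 in mitochondria. Their mitochondrial values rested on approximately 18 and 13 reads for Hcn2 and 32 and 33 for Kcnd2.

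The size of the fold change depended on the scaling. With the total of each library, this chromosome left out, as the scale, the median of all tested genes shifted by -0.84 to -0.98. Under this scaling 5 of the 9 genes were called lower by limma, while 31.4% of all tested genes were called lower and 1.06% higher. The 5 genes were Cacna1c (log2 fold change -2.74), Kcnh2 (-1.97), Kcnj2 (-1.97), Kcnq1 (-1.71) and Gja1 (-1.52). Hcn2 changed sign to -0.75 and was not called. A scaling multiplies all genes of a library by the same factor, so that positions relative to the median gene must stay nearly the same. On this measure Cacna1c was at -1.73 as deposited and -1.76 with the other scaling, Kcnh2 at -0.98 and -0.996, and Hcn2 at 0.24 and 0.23. Kcnj11 (-0.11 and -0.13) and Kcnd2 (-0.15 and -0.17) lay next to the median gene.

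**Figure D3:**
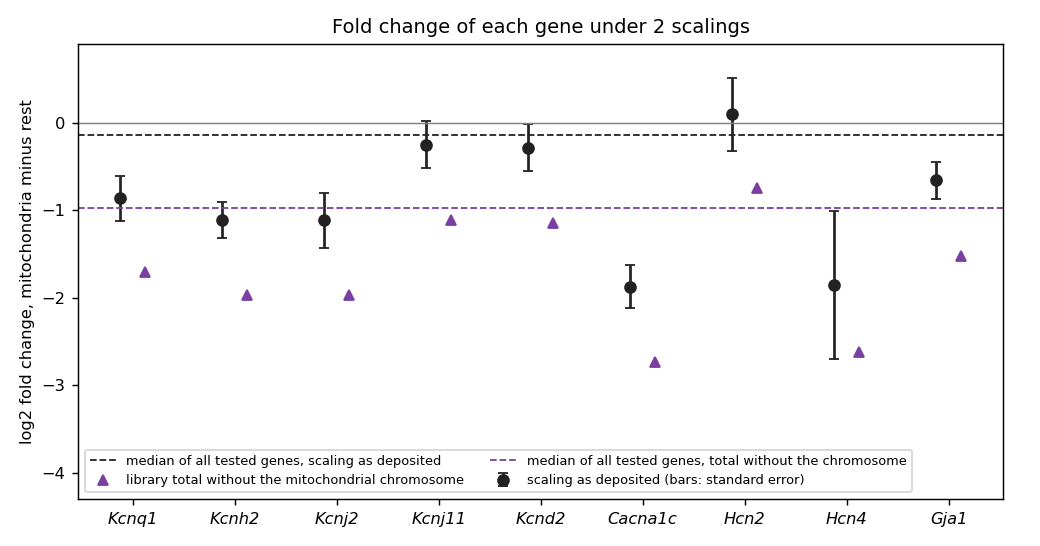
Log2 fold change, mitochondria minus rest, of the 9 genes under the deposited scaling (black circles, bars are standard errors) and with each library scaled to its total without the mitochondrial chromosome (triangles). Dashed lines are the medians of all tested genes under each scaling (-0.14 and -0.98); Cacna1c and Hcn4 lie farthest below them and Hcn2 lies above.

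Gene length moved with the fold change across the whole table, and the length values are therefore given beside those of the channels. The methods give a fragmentation time set for mitochondrial samples according to the size of their RNA and no time for the rest samples, and a difference in this step cannot be told apart from the fraction. Over 10611 tested nuclear protein-coding genes, log2 exon length and log2 fold change correlated with Pearson's r of -0.417 across genes, which are not independent and share the same 4 libraries. Across the 9 genes r was -0.651. The genes were cut by length into 4 groups of nearly equal size. From the shortest to the longest group, the median log2 fold change went from 0.48 through -0.06 and -0.30 to -0.53. The share called lower went from 0.0377% to 2.90%. Cacna1c, with 21191 exon bases, and Gja1, with 10257, belonged to the longest group, and Hcn2, with 3195, to the shortest.

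The longest group ran from 7498 to 123179 exon bases, so that genes of a group were not all of like length. Compared with genes of its own length group, Cacna1c was 1.34 below the group's median on the log2 scale, and 2.41% of these genes had a more negative fold change. Hcn4 was 1.56 below its median, with 3.89% of genes more negative, and Kcnh2 was 1.06 below, with 9.61% more negative. Kcnj2 and Kcnq1 were 0.82 and 0.81 below. Gja1 (0.13 below) and Kcnd2 (0.01 above) were near the median of their groups. These groups count the exons of all annotated transcripts of a gene. The transcript with the longest coding sequence has 3182 bases for Gja1 and 6669 for Cacna1c. No groups were formed on that length, so that the place of Gja1 among genes of like transcript length is open. Hcn2, the 1 gene with a positive fold change, was 0.39 below the median of the short genes, and Kcnj11 was 0.20 below. The part of length in these values was not tested further.

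**Figure D4:**
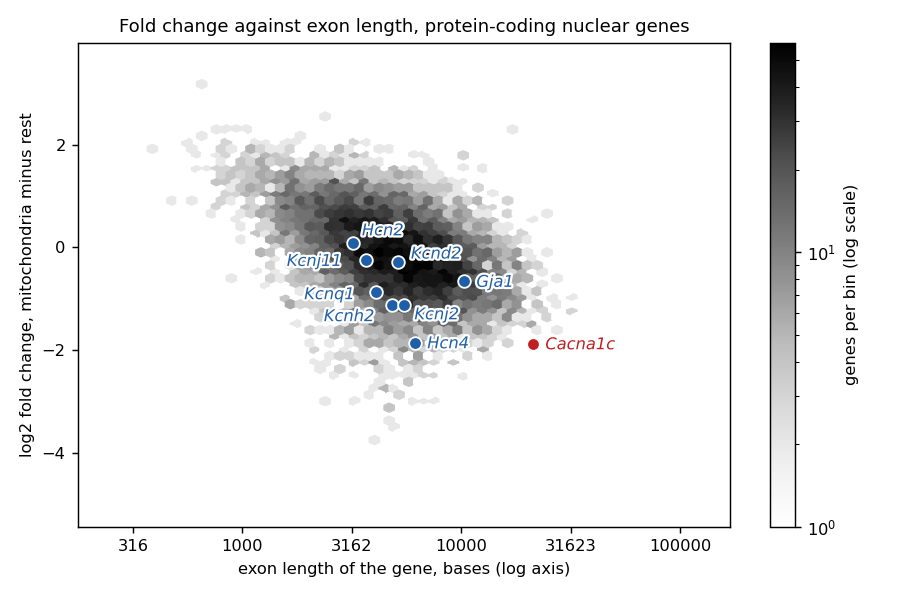
Log2 fold change, mitochondria minus rest, against exon length (log axis) for 10611 tested protein-coding nuclear genes, shaded by genes per bin on a log scale. The 9 genes are marked, with Cacna1c, the 1 gene called lower, in red. Exon length covers all annotated transcripts of a gene. Cacna1c (21191 bases) lies at the lower edge of the long genes. Gja1 (10257 bases, but 3182 in the transcript with the longest coding sequence) and Kcnd2 lie in the middle of genes of their exon length.

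Other genes of cardiac excitation were taken from 6 lists with 62 genes, of which 55 were listed and 47 tested. Of these, 2 were called lower and 0 higher, while 19 were lower and 3 higher at an unadjusted p-value under 0.05 by limma. The shares over all tested genes were 1.39% lower and 2.16% higher for the adjusted calls, and 16.2% lower and 14.1% higher without adjustment. Their median log2 fold change was -0.53, and 34 of 47 were negative, against 56.2% of all tested genes. Both called genes have a place beside the channels above. Cacnb2, the beta subunit that brings the L-type channel to the membrane, had 120 and 115 normalized counts in mitochondria and 312 and 279 in the rest, with a log2 fold change of -1.32 ± 0.18 (SE) and an adjusted p-value of 0.0450 by limma. Xirp1, an actin-binding protein of the intercalated disc, had 248 and 278 against 633 and 708, with -1.35 ± 0.17 (SE) and an adjusted p-value of 0.0427 by limma. Neither fraction overlapped the other for these 2 genes. No tested gene, these 2 included, was called when any 1 library was left out.

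Of the other calcium channel genes, 8 of 9 were listed and 5 tested, with 1 called lower, 0 called higher and a median of -1.32. Cacna2d1, the main alpha2delta subunit of the channel, had 376 and 332 normalized counts in mitochondria and 632 and 669 in the rest, with -0.88 and an adjusted p-value of 0.0590 by limma. Of the 5 tested genes, 4 had both mitochondrial values below both rest values, as did Cacna1c and 33.4% of all tested genes. The 4 were Cacnb2, Cacna2d1, Cacna1g and Cacna2d2, and the L-type pore gene Cacna1d overlapped. Cacna1g rested on approximately 1 and 8 reads in mitochondria and Cacna2d2 on 0 and 5. The median of the list includes these 2 genes.

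The list of potassium channel genes and partners had 17 of 19 genes listed and 14 tested. None was called in either direction, 9 were negative and 5 positive (56.2% of all tested genes were negative), and the median was -0.57. Abcc9, a sulfonylurea receptor that pairs with Kcnj11 in ATP-sensitive channels, had 1394 and 923 normalized counts in mitochondria and 1732 and 1508 in the rest, with -0.51 and an adjusted p-value of 0.251 by limma. Kcnk3, a background potassium channel, had 321 and 151 against 320 and 245, which overlapped. 2 further partners were chosen after their values were seen. Abcc8, the other sulfonylurea receptor, had 50 and 36 against 137 and 129, with a log2 fold change of -1.62 and an adjusted p-value of 0.0502 by limma, whereas Kcnj11 itself overlapped. Kcnip2, the auxiliary subunit of Kcnd2 channels, had 236 and 135 against 166 and 121 and overlapped between the fractions, as Kcnd2 did.

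Of 7 other connexin genes, 4 were listed and tested and none was called, with a median of -0.59. Gjc1, connexin 45 of the nodes, had 15 and 41 against 64 and 57 (adjusted p-value 0.190 by limma), and Gja5, connexin 40 of the atria and the conduction system, 12 and 23 against 34 and 34 (adjusted p-value 0.193 by limma). These 2 genes had both mitochondrial values below both rest values, which 33.4% of all tested genes did, and the other 2 tested genes of the list, Gja3 and Gja4, overlapped between the fractions.

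Of 8 sodium channel partner genes, all were listed, 6 were tested and none was called, with a median of 0.13. Scn7a, itself a gene of the sodium channel family, had 372 and 189 against 146 and 207. Fgf13, an intracellular modulator of sodium channels, had 77 and 79 against 85 and 71. Both overlapped between the fractions. All 17 genes of the intercalated discs and membrane scaffolds were tested, with 1 called lower and a median of -0.54. Of the 17, 14 were negative, against 56.2% of all tested genes. Dsp, the desmosomal plaque protein desmoplakin, went the other way in value, with 21658 and 17800 in mitochondria and 10261 and 10588 in the rest and an adjusted p-value of 0.0910 by limma. Ctnna1, which ties cadherins to actin, had 1572 and 1362 against 1881 and 2054.

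2 further lists of the myocyte are given side by side, without a test between lists. The sarcoplasmic reticulum calcium handling genes, 12 tested, had a median of 0.15, with 7 positive, 5 negative and none called. The thick filament and titin genes, 11 tested, had a median of -0.20, with Myl3 called higher and 7 negative. The channels with Gja1 had the lowest median of the 3 lists, at -0.86. Of all tested genes, 56.2% were negative.

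**Figure D5:**
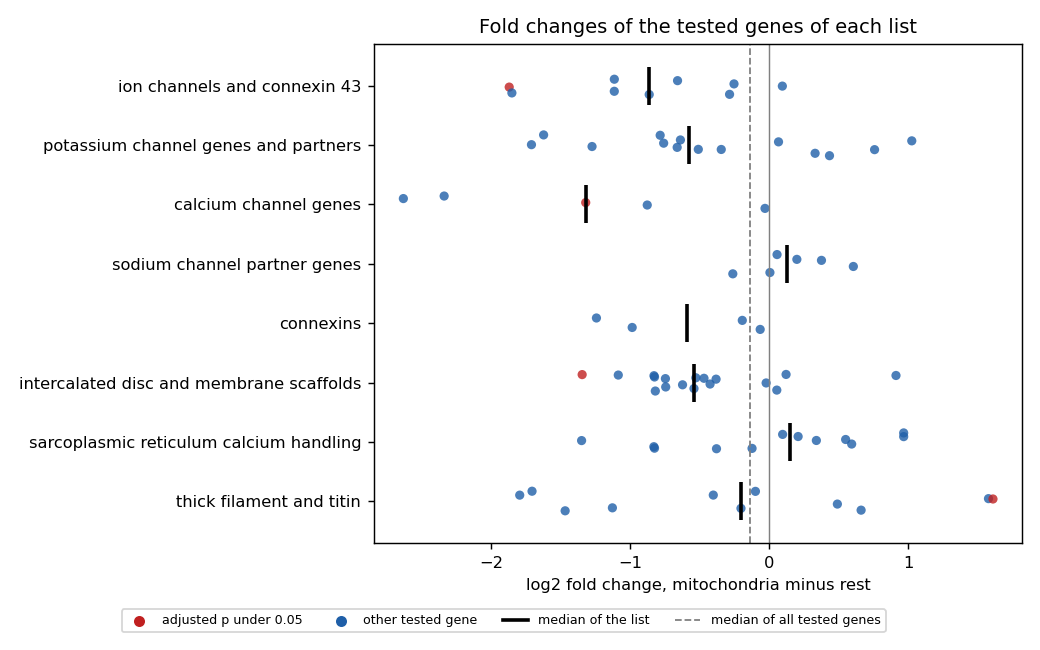
Log2 fold change, mitochondria minus rest, of every tested gene in the list of the 9 genes, in 5 of the lists of other excitation genes and in the lists of sarcoplasmic reticulum calcium handling and thick filament genes. Points are genes (red, adjusted p-value under 0.05 by limma), and vertical position within a list is arbitrary. Black bars are list medians and the dashed line is the median of all tested genes (-0.14). The medians of the 9 genes (-0.86) and of the calcium channel genes (-1.32, 5 tested) lie left of it. Among the latter, Cacna1g and Cacna2d2 rested on few mitochondrial reads. The median of the sodium channel partner genes (0.13) lies right of it.

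Marker lists of other cell types and of nuclear RNA are given beside the channels, and no list was tested as a whole. Summed normalized counts in mitochondrial replicates 1 and 2 and rest replicates 1 and 2 were 278797, 205978, 236604 and 207961 for the cardiomyocyte list (median log2 fold change 0.88, 0 of 7 called). They were 1639, 1433, 2830 and 2506 for the endothelial list (median -0.80, 0 of 6 called), and 1624, 1701, 2648 and 3165 for the smooth muscle and pericyte list (median -0.89, 1 of 5 called, Myh11, lower). They were 8382, 3550, 2236 and 3180 for fibroblasts (0.97, 0 of 6 called) and 1053, 470, 307 and 448 for macrophages (0.89, 0 of 6 called). Endothelial and smooth muscle markers thus had lower sums in mitochondria, and the fibroblast and macrophage sums were highest in mitochondrial replicate 1. All 6 endothelial markers had a negative log2 fold change, against 56.2% of all tested genes. Of the 5 smooth muscle and pericyte markers 3 were negative, while Pdgfrb (0.51) and Cspg4 (0.20) were positive, and Tagln was not listed. Neuron and Schwann cell markers summed to 4, 23, 17 and 15, with 2 of 6 listed and S100b at 0 in 1 library. Red blood cell markers summed to 50, 341, 824 and 440 (median -2.09, 0 of 5 called, Alas2 at 0 in 1 library). Nuclear RNAs summed to 13656, 8755, 42981 and 45540 (median -2.23, 0 of 5 called, Xist at 0 in 1 library), so that both rest libraries were far above both mitochondrial ones. The part of cell type makeup and of nuclear RNA in the values of the channels was not tested.

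Genes with the profile most like that of the 9 genes were sought over the 4 libraries among 5272 protein-coding genes. The mean profile of the 9 genes, on the log2 scale around each gene's own mean, was -0.13 and -0.75 in mitochondrial replicates 1 and 2 and 0.54 and 0.34 in rest replicates 1 and 2. Mitochondrial replicate 2 was thus the lowest library on average, and 8 of the 9 genes were lower there than in mitochondrial replicate 1. This mean weights each gene alike, Hcn4 with its approximately 5 and 1 mitochondrial reads included. Hcn4 differed by 2.32 on the log2 scale between the mitochondrial replicates, against a median of 0.43 over the 9 genes. The distances below are taken to this mean. The nearest profiles were those of Cep350, a centrosomal protein (Euclidean distance 0.0315), Tef, a transcription factor (0.0329), Mroh1 (0.0614), Ahctf1, a nuclear pore protein (0.0710), and Atp2a2, the calcium pump of the sarcoplasmic reticulum (0.0720). Among the 9 genes, Kcnj2 was nearest to their mean, at 0.261, and Hcn4 farthest, at 1.55.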

How the data were processed

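RNA-seq of the mitochondrial and the rest fraction of mouse hearts (2 libraries each) was analyzed from the deposited table. The deposited score of each gene and library is a normalized count, which the authors obtained by dividing the number of reads by a size factor and rounding it to a whole number. Per the methods, reads were trimmed with Trimmomatic, aligned to GRCm38 with STAR, counted on exons with featureCounts, leaving out reads that overlap several genes or align to several regions, and compared by the authors with DESeq2. The submitters' processing notes give, for the authors' run, Trimmomatic 0.39, STAR 2.7.10a, featureCounts 2.0.2 and DESeq2 1.30.1, and some of these versions differ from those in the methods. Library preparation was stranded. The table also holds fold changes and p-values of the authors' own comparison, which were not used.

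Normalized counts per read and approximate reads were taken from the spacing of the values, a step tested on simulated data. About 47400000, 32100000, 26300000 and 23500000 reads fell on genes in mitochondrial replicates 1 and 2 and rest replicates 1 and 2. A read is worth under 1 normalized count in the rest libraries, so that reads there are approximate and no count test was run. Genes that reached 10 normalized counts in 2 or more libraries entered the test with limma 3.58.1 (R 4.3.3; empirical Bayes moderation with a mean-variance trend, pseudocount 1, two-sided, Benjamini-Hochberg adjustment); fold changes on this scale are understated for low genes. Exon lengths, positions and codons came from GENCODE M21. The ratio of pooled reads has an exact (Clopper-Pearson) interval at 95%, which covers counting error only.

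The genes and all lists were chosen with earlier results of these data known. Named beside the 9 genes were all called genes and the 2 most abundant of each list, the 5 nearest profiles, and Kcnq1ot1 for its position; Abcc8, Kcnip2 and some list members outside this rule were chosen after their values were seen. Individual values of the list of further pacemaker channel genes and some codon sequences are not reported here. The model had no term for the replicate number, which served as a block in 1 alternative. Further alternatives were pseudocounts of 0.1 and 10, no filter or a mean above 50, recomputed size factors, scaling to the library total with or without the mitochondrial chromosome, voom on approximate reads, and leaving out each library in turn.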

Additional observations from a re-analysis of the deposited data

How the results depend on the processing

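Cacna1c kept its direction in all 13 alternatives, with log2 fold changes from -5.85 to -1.64. All tested genes called higher and lower by limma (262 and 169) became 0 and 0 with a pseudocount of 0.1 (1694 and 1754 at an unadjusted p-value under 0.05), 536 and 580 with a pseudocount of 10, 790 and 670 with a mean above 50, 2 and 12022 when scaled to the library total, 129 and 3819 when that total left out the mitochondrial chromosome, and 1082 and 718 with voom; without a filter 630 were lower. Leaving out any 1 library gave 0 and 0 calls, 0 to 0 for the 9 genes and 0 to 0 for the other channel genes (at least 590 higher and 468 lower genes at an unadjusted p-value under 0.05, and 2 to 6 lower among the 9 genes); the fraction left with a lone library is then assumed to vary like the other. Of the 9 genes, 1 was called lower, against 0 with a pseudocount of 0.1 (5 unadjusted), 2 with a pseudocount of 10, 3 with a mean above 50, which leaves out Hcn2, Hcn4 and Kcnq1, 9 with the library total, 5 with that chromosome left out and 3 with voom. Of the other channel genes, 2 were called lower, against 0 (19 unadjusted), 7, 6, 47, 26 and 7 in the same order, and voom called 1 higher. The median log2 fold change of the 9 genes was -4.68 with the library total as scale and -1.71 when the total left out that chromosome. Hcn2 changed sign to -3.79 and -0.75 under these scalings and ranged from -0.44 to 0.63 when 1 library was left out, and Kcnj11 from -0.52 to 0.018. The cause of these changes was not tested.

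The replicate numbers are shared in the labels only: same-numbered libraries deviated together with r of 0.13 over 12150 genes, in 2 pairs. With the replicate number as a block, 470 genes were called higher and 309 lower, 1 of the 9 genes and 4 of the other channel genes were lower, and Cacna1c had an adjusted p-value of 0.0223 by limma; no other gene of the 9 was called. The depth of the mitochondrial libraries limits Hcn4 and Kcnq1 most, with 6 and 19 reads in both libraries together.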
